A study of Mus musculus with 24 samples.

Results

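P-selectin (*Selp*), E-selectin (*Sele*) and 5 genes for the ligands they bind were followed in hematopoietic stem cells of young and old mice. *Selp* was the member that differed most with age: young mice averaged a normalized read count of 98.5 ± 22.6 (SD, n = 5) and old mice one of 407 ± 169 (SD, n = 7), a 4.13-fold ratio. None of the other 6 members was called for age. The 7 members are 7 of the 18762 genes in the table, taken by symbol, and all 7 had a mean of at least 10 and were tested. The family was chosen by the higher *Selp* of old mice in these same samples, so the age difference of *Selp* is given as a description with no p, and it supports nothing here.

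Selectins are adhesion receptors that bind carbohydrate ligands and let blood cells tether to and roll along vessel walls. P-selectin is kept in granules of platelets and endothelial cells and moves to the surface on activation, and E-selectin is made by activated endothelium. Their ligands are sialylated and fucosylated glycans, of which the best known sit on the scaffold protein PSGL-1 (*Selplg*). *Gcnt1* makes the core 2 branch of O-glycans, *St3gal4* adds sialic acid to the branch, and *Fut4* and *Fut7* add the fucose that completes sialyl Lewis X, the shared selectin ligand. In the bone marrow, endothelial E-selectin and P-selectin receive stem and progenitor cells that carry such ligands.

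The cells were LSK-SLAM cells of the bone marrow, sorted as free of lineage markers and CD48 and positive for Sca-1, c-Kit and CD150, a gate that enriches stem cells, from 5 young mice of 4 to 5 months and 7 old mice of 20 to 22 months. All mice were WT and of strain C57BL/6, and the labels give no engineered allele and no treatment. The study's text gives somewhat higher ages for both groups. RNA came from 15000 sorted cells, and 300 pg of ribosomal-depleted RNA entered the TotalScript kit. The labels number the replicates and do not say in words that each is a separate animal, while the study speaks of mice, and p-values measure the spread between these 12 libraries, called mice below. The labels list 24 samples, 2 to a mouse, and 1 column of values was deposited for each mouse.

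Every column name ends in the letter A (2 young, 4 old mice) or B (3 young, 3 old mice), whose meaning the sources used here do not give. Reads recovered on genes numbered 0.861 to 3.11 M in mice with letter A and 3.23 to 5.12 M in mice with letter B, so that letter and depth cannot be told apart. At these depths 3 reads equal a normalized read count of 0.583 to 3.69, and intervals cover the spread between mice only. Of 12354 genes tested, limma called 13 for age and 4462 for the letter. The cells were checked against marker lists: *Kit* had the highest level of the 10 stem cell sort markers (mean 1508). In limma over all 12 mice none of the 45 marker genes tested was called for age, and 18 were called for the letter. With letter A alone 3.92% of 51 tested markers were called for age, beside 0.0216% of all genes. With letter B alone it was 7.89% of 38 markers, beside 0.974% of all genes. The sort markers summed to 1532 in old mouse 5 and 2195 in old mouse 7, under the 2963 to 5263 of the other 10 mice. Neutrophil and monocyte markers summed to 4112 in old mouse 6, against 139 to 1104 in all others.

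*Selp* (ENSMUSG00000026580) lies on the plus strand at chr1:164115264-164150026 of GRCm38, and *Sele* (ENSMUSG00000026582) starts 67.0 kb before it at chr1:164048234-164057677. The promoters of *Selp* and *Sele* are printed because these 2 genes of the same cluster differed in opposite directions between the letters, and their ages overlapped for *Sele* and not for *Selp*. Each window holds 250 bases before and 50 bases after the RefSeq start (GRCm38.p6, plus strand), *Selp* at chr1:164115014-164115313 and *Sele* at chr1:164047984-164048283. Capitals mark matches to a GATA factor motif (GATAA), to the core of an ETS factor motif (GGAAG) and to the TATA box (TATAAA), searched on both strands.
Selp: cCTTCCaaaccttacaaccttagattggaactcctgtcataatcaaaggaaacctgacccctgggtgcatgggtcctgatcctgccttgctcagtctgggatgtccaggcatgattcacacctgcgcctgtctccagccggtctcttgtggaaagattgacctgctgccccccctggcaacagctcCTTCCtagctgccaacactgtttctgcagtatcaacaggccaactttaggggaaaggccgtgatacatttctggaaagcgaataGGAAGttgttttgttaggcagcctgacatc
Sele: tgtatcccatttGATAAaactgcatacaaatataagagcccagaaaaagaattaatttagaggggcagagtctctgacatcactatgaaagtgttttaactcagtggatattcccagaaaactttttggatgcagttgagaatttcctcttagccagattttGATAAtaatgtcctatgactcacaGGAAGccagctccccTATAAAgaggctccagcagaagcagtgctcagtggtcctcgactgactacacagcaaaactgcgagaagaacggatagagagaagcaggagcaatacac
The *Selp* window held GGAAG at 3 places and no match to the other 2 motifs, with the first base of the match nearest the start at 21. The *Sele* window held GATAA at -238 and -88, GGAAG at -64 and TATAAA at -49, counted from the start. Of 32851 promoter windows of the same length, 71.41% held GGAAG, 25.41% GATAA and 13.62% TATAAA, and no motif spelled out here overlapped another in these windows. Of the 7 members, 6 had a promoter in the RefSeq table.

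*Selp* in young mice was tightly grouped apart from 1 animal: its normalized read counts were 58.5, 105.8, 113.4, 105.8 and 109.0 in young mice 1 to 5. In old mice the lowest value was 140 (mouse 5), the median 503 and the highest 550 (mouse 4). Every old mouse lay above every young mouse, and the old mice spread more widely, with a coefficient of variation of 41.5% against 22.9%. The difference on the scale of log2(value + 1) was 1.93 ± 0.32 (SE). It was 1.79 in mice with letter A alone and 2.30 in mice with letter B alone, and 1.75 to 2.16 when each mouse in turn was left out, lowest without young mouse 1 and highest without old mouse 5. In bulk samples of this kind, fewer cells that express a gene and less RNA per cell cannot be told apart.

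The wide spread of *Selp* in old mice lay within letter A. Old mice with letter B held 532, 548 and 550, whereas old mice with letter A held 503 (mouse 1), 345 (mouse 6), 230 (mouse 7) and 140 (mouse 5). The 2 lowest were the mice with the low sum of sort markers and the next was the mouse with the high neutrophil and monocyte markers. The 2 lowest were also the shallowest libraries of all mice, with 1.13 M reads in mouse 5 and 0.861 M in mouse 7. The part of sort markers, neutrophil and monocyte markers or depth in the level of *Selp* was not tested. Young mice with letter A held 58.5 and 105.8, and those with letter B 105.8 to 113.4. Since P-selectin is a known product of megakaryocytes, platelets and endothelium, those lists stand beside it. Endothelial markers (10 with a value) summed to 378 to 485 in young and 366 to 501 in old mice, which overlapped. Megakaryocyte and platelet markers (9 with a value) summed to 396 to 637 in young and 483 to 948 in old mice, most of it *Vwf* (mean 411), and none of either list was at 0 in every mouse. Of the 6 tested members of that list 5 had a higher estimate in old mice and none was called by limma. The 5 ran from 0.07 (*Itga2b*) to 0.77 (*Vwf*) on the log2 scale, beside a median of -0.02 over all genes. The exception was *Pf4*, a platelet chemokine named after its values were seen, which averaged 41.0 ± 26.4 (SD, n = 5) among young against 14.6 ± 6.22 (SD, n = 7) among old animals (limma adjusted p = 0.796). Members with a mean under 10 were not tested and are also named after their values were seen. *Ppbp* averaged 8.44 in young and 1.88 in old mice, *Clec1b* 4.74 and 11.3, and *Tubb1* 6.08 and 5.99.

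**Figure D1:**
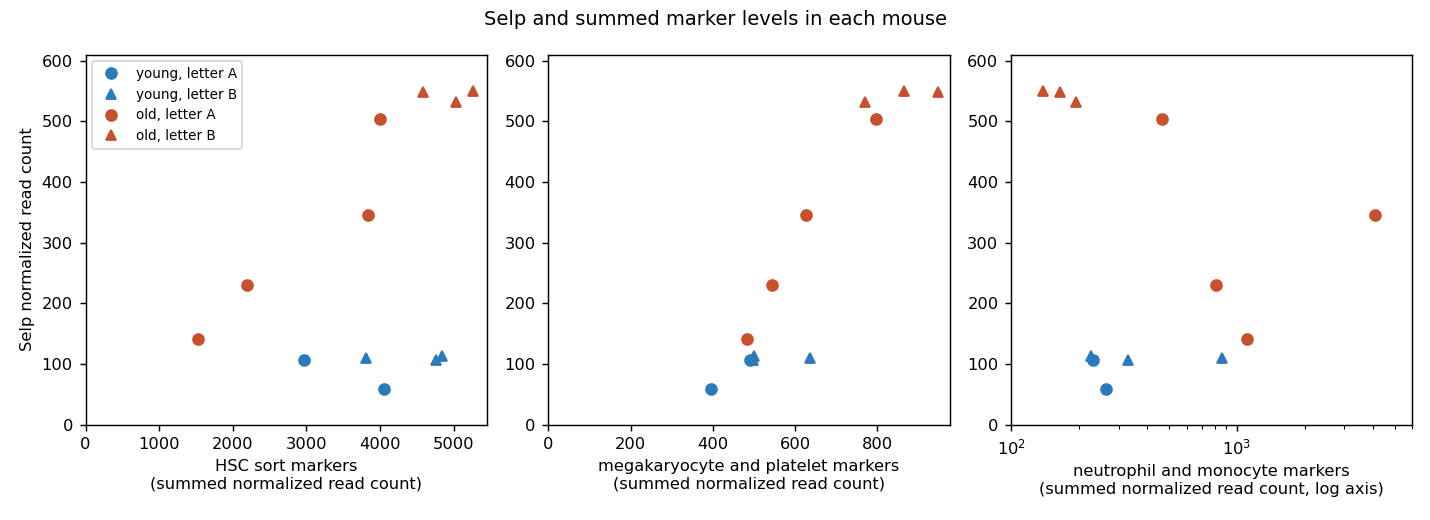
*Selp* normalized read count (vertical axis) against the summed normalized read count of stem cell sort markers, megakaryocyte and platelet markers, and neutrophil and monocyte markers (log axis) in each mouse, 1 point per mouse, with colour for age and shape for label letter. The 5 young mice sit between 58.5 and 113, all under the 7 old mice. Old mice 5 and 7, lowest in *Selp* among the old, have the lowest sums of sort markers and the shallowest libraries.

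*Sele* had the lowest mean per kb of the members in both ages. In old mice it overlapped *Fut4*, which was above it in 5 of 7 mice. In old mice with letter A *Sele* averaged 8.11 per kb, above *Fut4* (6.40) and *Fut7* (5.92). The normalized read counts of *Sele* were 6.84, 22.1, 6.87, 12.17 and 12.04 in young mice 1 to 5, resting on 22 to 62 reads. In old mice they ranged from 0.778 (mouse 4, 4 reads) over a median of 14.9 to 32.0 (mouse 7). The ages overlapped throughout, and the age difference was 0.04 on the log2 scale (95% interval -1.31 to 1.38, limma adjusted p = 0.9997). The interval is the widest of the family and leaves room for a change in either direction. Old mice with letter A held 14.9 to 32.0 and old mice with letter B 0.778 to 7.84, without overlap, while young mice of both letters overlapped.

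Per kb of exonic sequence, *Selp* made up 75.9 to 91.6% of the summed level of the 2 selectins in young mice. In old mice with letter B it made up 97.8 to 99.8%, and in old mice with letter A 82.5 to 95.7%, so that *Selp* RNA was the more abundant of the pair in every mouse.

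**Figure D2:**
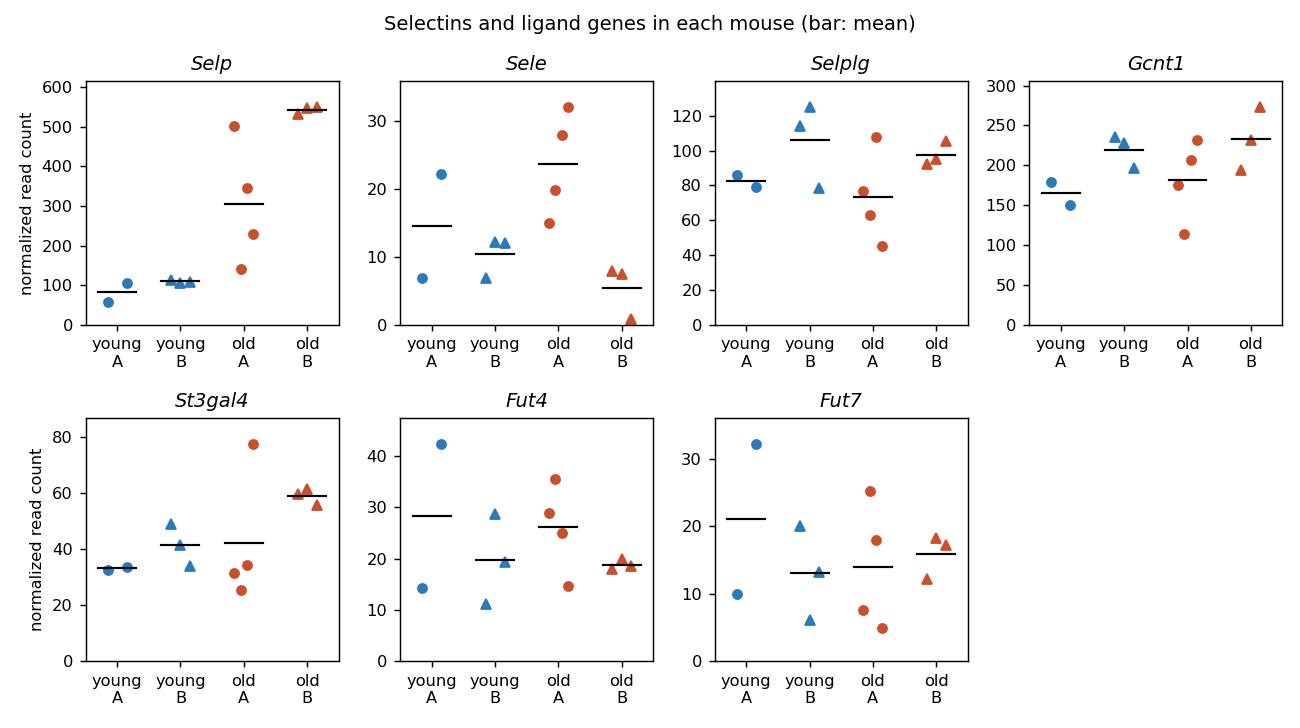
Normalized read count (vertical axis, from 0) of the 7 members in each mouse, in columns by age and label letter, with a bar at the mean of each column. *Selp* lies between 58.5 and 113 in young and between 140 and 550 in old mice, whereas the ages overlap in every other panel.

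The RNA of PSGL-1, the main protein scaffold for P-selectin ligands, was not called for age. *Selplg* (chr5:113818536-113832644, minus strand) had normalized read counts of 86.2, 78.8, 114, 125 and 78.4 in young mice 1 to 5, and in old mice of 45.5 (mouse 7) to 108 (mouse 6) with a median of 92.4. The ranges overlapped, and the age difference was -0.23 (95% interval -0.70 to 0.24, limma adjusted p = 0.9997). Over 27 alternatives the estimate ran from -0.30 to -0.09, and the interval leaves room for a lower level in old mice. The ratio of *Selp* to *Selplg* within a mouse, which no scaling between libraries can alter, was 0.679 to 1.39 in young and 2.23 to 6.55 in old mice. These ratios did not overlap, as for *Selp* itself.

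*Gcnt1* (chr19:17326141-17372844, minus strand), the branching enzyme, was the most strongly expressed of the ligand genes and had the lowest coefficient of variation of the members over all mice, 21.4%. Its normalized read counts were 179, 150, 235, 228 and 197 in young mice 1 to 5 and ranged in old mice from 114 (mouse 5) to 273 (mouse 4), with a median of 206. The age difference was 0.02 (95% interval -0.43 to 0.46, limma adjusted p = 0.9997), the narrowest interval of the family. *St3gal4* (chr9:35046576-35119268, minus strand), the sialyltransferase, held 32.7, 33.7, 48.9, 41.6 and 34.1 in young mice and 25.3 to 77.5 in old mice, with a median of 55.6. Old mice with letter B (55.6 to 61.4) lay above all young mice, but old mice 1, 5 and 6 did not (25.3 to 34.5). Its age difference was 0.28 (95% interval -0.28 to 0.85, limma adjusted p = 0.9997).

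The fucosyltransferases that finish the ligand were low. *Fut4* (chr9:14748320-14752393, minus strand) had normalized read counts of 14.3, 42.3, 11.2, 28.6 and 19.4 in young mice 1 to 5 and 14.8 to 35.5 in old mice (median 19.9). *Fut7* (chr2:25423267-25426374, plus strand), the enzyme most tied to selectin ligands on leukocytes, held 9.95, 32.2, 20.0, 6.08 and 13.2 in young mice and 4.92 to 25.3 in old mice (median 17.3). Young mouse 2 had the highest value of both enzymes among all mice. The age differences were 0.08 (95% interval -0.63 to 0.80) and -0.08 (95% interval -1.07 to 0.91), with limma adjusted p = 0.9997 for each. The value of *Fut7* in old mouse 7, the shallowest library, rested on 4 reads.

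Over the family, the limma fit over all genes placed 1 of 7 members past the threshold as higher in old mice (*Selp*, on which the family was chosen) against 0.0971% of all genes tested, and 0 of 7 lower against 0.00809%. The ages did not overlap, with old mice higher, in 1 of 7 members against 0.291% of genes, and nothing is read from these shares because *Selp* fixed them. In limma no unadjusted p among the other 6 members was under 0.05. On recovered reads edgeR called 0 of 6, and DESeq2 called 0 of the 4 to which it gave an adjusted p (none for *Sele* and *Fut7*). The median difference of the 6 was 0.03, beside -0.02 over all genes. The summed normalized read count of the 5 ligand genes averaged 372 ± 52.8 (SD, n = 5) among young and 375 ± 67.7 (SD, n = 7) among old animals.

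**Figure D3:**
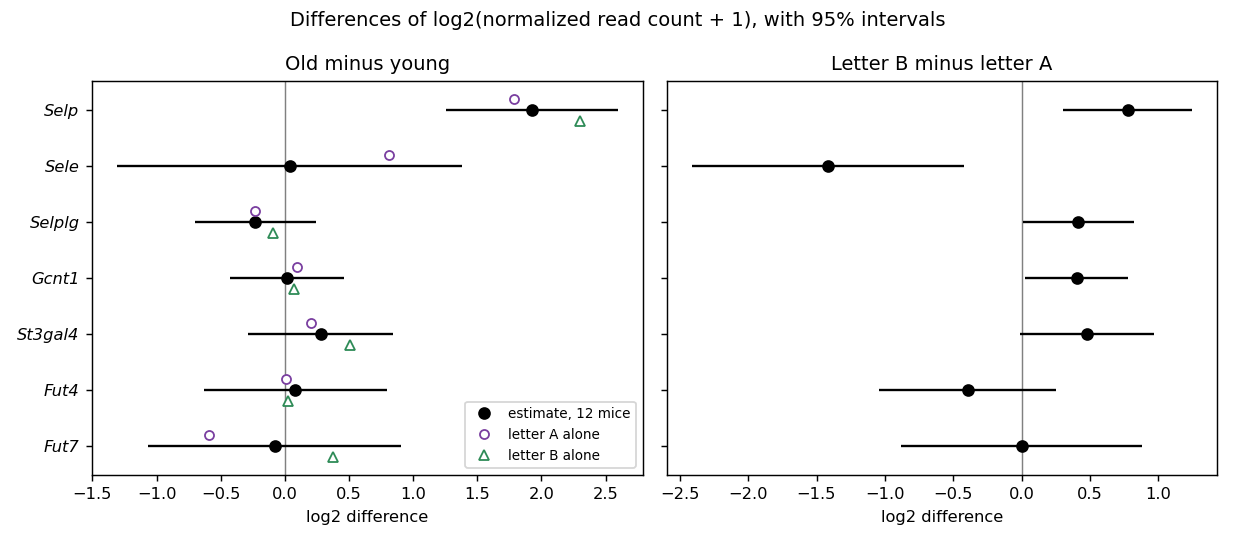
Differences of log2(normalized read count + 1) between old and young (left) and between letter B and letter A (right) for the 7 members, with 95% intervals over 12 mice; open symbols give the age difference within a letter, which *Sele* lacks for letter B, where its mean was under 10. Apart from *Selp* at 1.93, chosen for this difference, each age interval includes 0.

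Between the label letters 2 of the 7 members were called in opposite directions. *Selp* was higher in letter B by 0.77 (95% interval 0.30 to 1.25, limma adjusted p = 0.0123) with age in the fit, where 10.5% of genes tested were called higher in B. *Sele* fell by 1.42 on the log2 scale in letter B (95% interval -2.41 to -0.42, limma adjusted p = 0.0250), a direction shared by 25.6% of genes. The mean of *Sele* was 20.6 ± 9.02 (SD, n = 6) in letter A and 7.87 ± 4.18 (SD, n = 6) in letter B, and the letters overlapped in both genes. Of the 9 tested endothelial markers, 3 were also called lower in letter B, *Cdh5* (-1.67, limma adjusted p = 0.00161), *Sox17* (-1.50, limma adjusted p = 0.00532) and *Flt4* (-1.15, limma adjusted p = 0.0226), and 1 was called higher, *Esam* (0.58, limma adjusted p = 0.0355). These 4 were named after their values were seen, the list summed to 366 to 501 in letter A and 378 to 436 in letter B, and the part of such cells in the level of *Sele* was not tested. Beside them, 25.6% of all genes were called lower in B and 10.5% higher. The direction was not particular to endothelial markers. Also called lower in B were 4 of 8 tested neutrophil and monocyte, 2 of 5 lymphocyte and 2 of 8 erythroid markers. So were 1 of 9 sort markers and 1 of 6 megakaryocyte and platelet markers, while 5 of all 45 tested markers were called higher. With reads thinned to the shallowest mouse, chosen after seeing the data, the differences of *Selp* and *Sele* were 0.84 (limma adjusted p = 0.00968) and -1.64 (limma adjusted p = 0.0344).

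The *Sele* call rested on single libraries. It was lost without old mouse 4 (-0.90, adjusted p = 0.0996), old mouse 6 (-1.30, adjusted p = 0.0532), old mouse 7 (-1.27, adjusted p = 0.0678) or young mouse 2 (-1.39, adjusted p = 0.0687) in limma, and with edgeR (adjusted p = 0.0504). The *Selp* call was lost without the variance trend (limma adjusted p = 0.0552). *Selplg*, *St3gal4* and *Gcnt1* were higher in letter B by 0.41, 0.48 and 0.40 (limma adjusted p = 0.0994, 0.113 and 0.0846) and passed the threshold in limma only under rescaling by median ratios, apart from *Selplg* without old mouse 6 (0.52, adjusted p = 0.0380) and *St3gal4* without old mouse 7 (0.65, adjusted p = 0.0277). That rescaling moved the median letter difference of all genes from -0.09 to 0.24, and the letter differences of these 3 genes to 0.71, 0.77 and 0.70 (limma adjusted p = 0.0145, 0.0146 and 0.0151, with ranges over all settings of 0.0145 to 0.323, 0.0146 to 0.231 and 0.0151 to 0.210). *Fut4* and *Fut7* differed by -0.40 and -0.00 (limma adjusted p = 0.333 and 0.9998). No member had an age difference that itself differed between the letters in limma (0 of 7, against 0.0162% of genes called), where 1 member, *Sele*, had an unadjusted p under 0.05 and a difference of -1.93 ± 0.94 (SE).

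Per kb of exonic sequence, where genes can be compared, the order of the members differed between the ages in the place of *Selp*. In young mice *Gcnt1* came first with 34.3 ± 6.06 normalized read counts per kb (SD, n = 5), followed by *Selplg* with 22.6 ± 5.06 and *Selp* with 22.3 ± 5.12. *Selplg* and *Selp* did not differ beyond their spread, with *Selplg* above in 3 of 5 mice. *St3gal4* followed with 13.1 ± 2.38, and *Fut7* (6.92 ± 4.36), *Fut4* (5.69 ± 3.09) and *Sele* (4.12 ± 2.14) overlapped at the low end. In old mice *Selp* came first with 92.2 ± 38.3 per kb (SD, n = 7) and was above *Gcnt1* (35.4 ± 8.78) in 7 of 7 mice, and the order of the other members was unchanged in the means. Of all tested genes, 84.4% had a lower level per kb than *Selp* in young mice and 98.6% in old mice. Over all mice 92.8% had a lower level per kb than *Gcnt1*, 83.3% than *Selplg*, 73.6% than *St3gal4*, 42.6% than *Fut7*, 37.3% than *Fut4* and 31.9% than *Sele*.

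Some *Selp* and *St3gal4* reads could belong to other genes. Of the 50-base words in *Selp* exons, 11.2% also occur in another gene, mostly *Gm16548* on the opposite strand, and 9.81% of those of *St3gal4* occur in *4930581F22Rik*, also on the opposite strand. Whether counting used strand is not given in the sources used here, those opposite genes were not analysed here, and the values of both members are uncertain to that extent. *Sele*, *Fut4*, *Fut7* and *Gcnt1* shared no such word.

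The members did not move as 1 group from mouse to mouse. After the mean of each letter was subtracted, Pearson correlations of log2 values over 12 mice ranged from -0.54 (*Fut4* with *Gcnt1*) to 0.66 (*St3gal4* with *Gcnt1*) over 21 pairs, of which 10 were above 0. Correlations with *Selp* ranged from -0.15 (*Sele*) to 0.42 (*St3gal4*), and 1198 was the best rank of a member among all genes. The 5 genes most like *Selp* were *Vwf* (r = 0.97), which encodes the clotting protein that shares storage granules with P-selectin, *Gda* (0.97), the guanine deaminase, *Gem* (0.96), a small GTPase, *Pbx3* (0.96), a homeobox factor, and *Enpp5* (0.95). These mice share age and letter, so the correlations are descriptions, and without subtracting letter means 4 of the 5 stayed and *Vldlr* replaced *Enpp5*. *Vwf* averaged 285 ± 60.0 (SD, n = 5) among young and 501 ± 154 (SD, n = 7) among old animals, which is 0.77 ± 0.26 (SE) on the log2 scale. It was not called by limma over all mice (adjusted p = 0.780, and 0.0580 with the letter as a term), but was with letter B alone. *Pbx3* was not called with age alone in the fit (0.81, limma adjusted p = 0.281), but was with the letter as a term (limma adjusted p = 0.0145). *Gda* (1.44, limma adjusted p = 0.0252), *Gem* (1.37, limma adjusted p = 0.0449) and *Enpp5* (1.29, limma adjusted p = 0.0449) were called higher in old mice. Likeness to *Selp* favours genes that differ with age, so these calls are no independent result.

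No gene around *Selp* was called for age. Of 16 GENCODE genes considered within 300 kb of *Selp*, 11 had a row and were tested, and their age differences ranged from -0.21 (*F5*, coagulation factor V) to 0.51 (*Atp1b1*, a sodium pump subunit). None of the 11 had an unadjusted p under 0.05, while edgeR called 0 of 11, and DESeq2 0 of the 8 to which it gave an adjusted p. *Sele*, 67.0 kb before the start of *Selp*, and *F5*, 36.6 kb after it, each had overlapping ages. For the letter, *Sele*, *F5* (-0.80, limma adjusted p = 0.0186) and *Atp1b1* (-1.50, limma adjusted p = 0.00553) were called, all lower in B. These 3 of 11 (27.3%) were near the 25.6% of all genes called lower in B, so nothing is read from them about the surroundings of *Selp*.

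**Figure D4:**
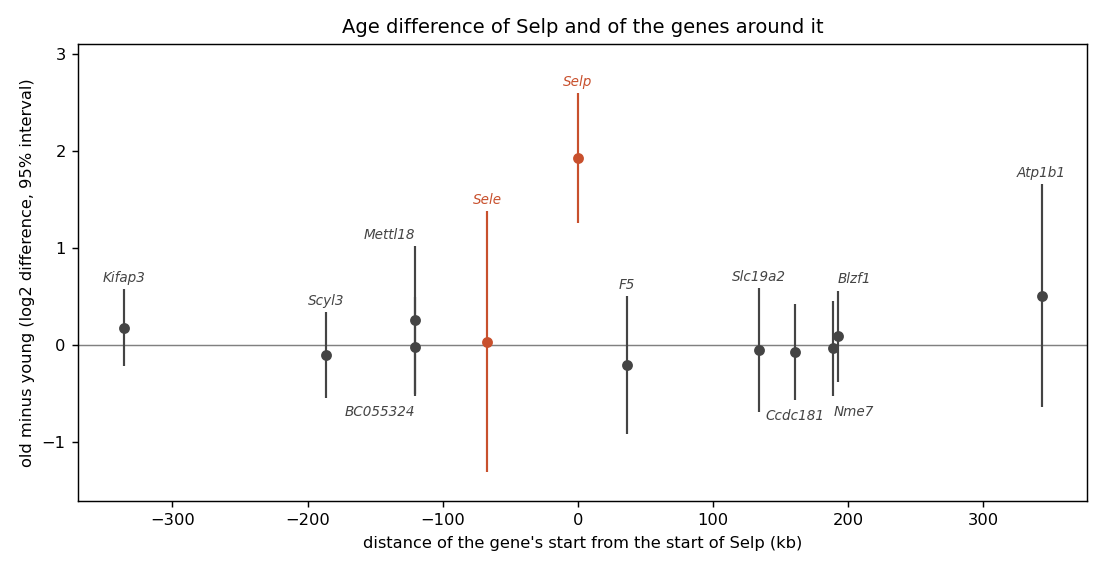
Age difference on the log2 scale with its 95% interval (vertical axis) of *Selp* and the 11 tested genes around it, by the distance of each gene's start from the start of *Selp* in kb. *Selp* stands at 1.93, and the 11 others lie between -0.21 and 0.51 with intervals that include 0.

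A wider list of 70 genes for scaffolds, glycan synthesis and sugar donors had 57 genes with a row, of which 52 were tested. In limma 0 of 52 were called for age, and 5 (9.62%) had an unadjusted p under 0.05, beside 3.95% of all genes. edgeR called 1 of 52 (1.92%, beside 0.146% of all genes) and DESeq2 2 of the 43 with an adjusted p (4.65%, beside 0.633%). The median age difference was 0.01, beside -0.02 over all genes, and 28 of the 52 were above 0. The largest were in scaffolds and sulfation. *Cd34*, a sialomucin that can carry selectin ligands on some vessels and also marks progenitors, averaged 182 ± 53.0 (SD, n = 5) among young and 84.6 ± 10.4 (SD, n = 7) among old animals, which is -1.04 ± 0.20 (SE) on the log2 scale with limma adjusted p = 0.0544, and 0.00856 with the letter as a term. *Chst2*, a carbohydrate sulfotransferase, was 44.6 ± 5.27 in young and 80.9 ± 19.0 in old mice, a difference of 0.81 ± 0.20 (SE) with limma adjusted p = 0.256.

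Other genes of the list stayed further from the threshold. *Emcn*, the endothelial sialomucin endomucin, differed by -0.70 and *Nans*, a sialic acid synthase, by -0.70 (limma adjusted p = 0.873 and 0.727). Among genes that act with PSGL-1, *Snx20* differed by -0.79 and the kinase *Syk* by -0.45. *Fut9* and *Fut8* differed by 0.59 and 0.42, *C1galt1* and *Gcnt3* of O-glycan branching by -0.36 and 0.16, *Galnt1* and *Galnt11* of O-glycan initiation by -0.26 and -0.22, and *Chst1* by 0.74 (limma adjusted p = 0.9997 for each). *B4galt6* and *B3gnt3* (0.22 and 0.21), *Fpgt* and *Slc35c1* of fucose supply (0.38 and 0.22), *Slc35a1* (0.18), and *St3gal5* and *St3gal3* (0.10 and -0.06) were nearer to 0.

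For the letter, 7 of the 52 were called higher in B and 6 lower, beside 10.5% and 25.6% of all genes. Higher in B were *Fut8* (0.84), the core fucosyltransferase, *Galnt1* (0.78) and *Galnt6* (0.49), which start O-glycans, *C1galt1* (0.57), which makes core 1, *Tpst2* (0.55), a tyrosine sulfotransferase that can act on PSGL-1, *Cmas* (0.54) of sialic acid activation, and *Glg1* (0.52), the E-selectin ligand ESL-1. Lower in B were *Galnt3* (-1.80), *Gcnt3* (-1.74), *Fut1* (-1.68), *Papss2* (-1.52), which makes the sulfate donor, *Fut9* (-1.32) and *Fuk* (-0.89), the fucose kinase (limma adjusted p = 0.00103 to 0.0403 over the 13). The 6 lower genes had means of 6.36 to 17.9 in letter B, and the 7 higher genes 117 to 372.

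**Figure D5:**
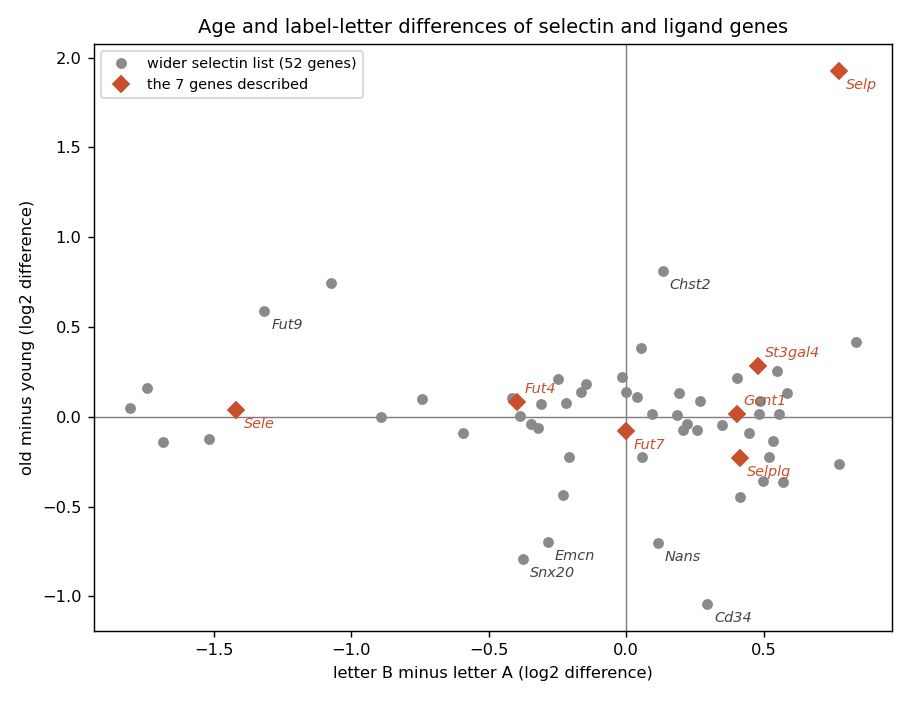
Old minus young (vertical axis) against letter B minus letter A (horizontal axis), both as log2 differences, for the 7 members and the 52 tested genes of the wider list, 1 point per gene. *Selp* lies apart at 1.93 in age, *Cd34* is lowest at -1.04, and the letter differences run from -1.80 to 0.84.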

How the data were processed

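RNA of LSK-SLAM cells was sequenced, and the submitters' processing notes name FastQC 0.11.8, STAR 2.5.4b, edgeR 3.24.3 and mm10; strand, counter and annotation are not given in the sources used here. The values used are a signal that the authors deposited as normalized read counts: the reads of a gene over a library size that was adjusted by a scaling factor, per 1000000 reads. Whole reads were recovered for 100% of the values above 0 (tolerance 0.01 read), 0.861 to 5.12 M per mouse. A second deposited table holds the authors' own comparison (log2 fold changes, log2 CPM, likelihood ratios, p-values and FDR) and was not used.

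Groups came from the age label. The tests were run over all 12354 genes with a mean of at least 10 with limma 3.58.1 (lmFit, eBayes with trend, two-sided) in R 4.3.3 on log2(value + 1), for age, for the label letter with age as a term, and for their interaction, with Benjamini-Hochberg adjustment and a threshold of 0.05. Fold changes of low genes are understated on this scale. The alternatives were pseudocounts of 0.5 and 5, no minimum mean or 50, no trend, median ratios, the letter as a covariate, each letter alone, a replicate block, each mouse left out, and edgeR 4.0.16 and DESeq2 1.42.0 on recovered reads; reads thinned to the shallowest mouse, edgeR for the letter or with the letter as a covariate, and replicates 1 to 5 unpaired were chosen after seeing the data. The limma age fit was tested on simulated reads. The letter and interaction fits, edgeR and DESeq2 were not. Python 3.11.15, pandas 2.3.3 and matplotlib 3.10.9 made summaries and plots.

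The members and all lists were chosen with earlier results of these data known. Named genes are the members; of the wider list, the genes called and up to 2 per role with the largest age difference; genes with a row within 300 kb of *Selp*; the 5 most correlated with *Selp* after subtracting letter means; and markers with the highest level of their list. Positions, exonic lengths and 50-base words came from GENCODE vM21 (18745 of 18762 identifiers found), promoters from RefSeq. One item that the rules would name is not reported here.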

Additional observations from a re-analysis of the deposited data

Results flagged for a closer look

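*Selp* in young mouse 1 stood apart from its group, at a normalized read count of 58.5 (188 reads) where the other 4 young mice held 105.8 to 113.4. This mouse carries letter A, and its *Selplg* (86.2) and *Gcnt1* (179) lay inside the range of the other young mice, while *St3gal4* (32.7) was just under their lowest value (33.7). Without it the age difference of *Selp* was 1.75 in place of 1.93. In all, 14 groups (each of the 7 members in each age) were checked with Dixon's ratio, which flags about 1 in 20 groups by chance, so 0.7 would be expected and 1 was found.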

How the results depend on the processing

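The age difference of *Selp* kept its direction in all 27 alternatives (1.75 to 2.30). The count of members past the age threshold, 1 of 7 and fixed by *Selp*, was 0 in 10 of them (without the trend, with median ratios, with letter A alone, and without young 1, 3, 4 or 5 or old 1, 2 or 3). None of the other 6 members was called for age in any alternative that gave it an adjusted p. The count of genes called for age (13) was 2 without the variance trend, 5 with median ratios, 37 with the letter as a covariate, 3 with letter A alone, 98 with letter B alone, 57 with DESeq2, 43 with edgeR and the letter as a covariate, 8 with replicates 1 to 5 unpaired and 3 to 32 with each mouse left out. It fell to 3 without young 3, young 4, old 1, old 2 or old 3, to 4 without young 5, 6 without young 1 and 7 without old 6, and was 32 without old 5. With the replicate block 19 genes were called, among them the 13, and the block changed the call of none of the 6 members. Correlations of same-numbered mice ran from -0.56 to 0.61 over 5 pairs, and 2 of 5 young mice correlated best with their own number. Age but not the letter was removed before these correlations, so they cannot show whether the numbers pair the mice. The count for the letter (4462) was 943 with a minimum mean of 50, where 4799 genes were tested, and 2817 to 5014 with each mouse left out, lowest without young 2. Median ratios split it into 3356 higher and 2288 lower in B, against 1301 and 3161 as deposited, so the direction of a letter difference near 0 depends on scaling, while *Selp* (1.07) and *Sele* (-1.16) kept theirs. The letter call of *Selp* was lost in 1 of 20 alternatives and that of *Sele* in 5 of 19. The interaction count was 2 in both alternatives. The cause of these changes was not tested. *Sele* (4 to 62 reads) and *Fut7* (4 to 102 reads) had the widest age intervals of the family.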

Other observations

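The remaining marker lists, which enter no comparison of the family, are given as values. Lymphocyte markers (9 with a value) summed to 62.6 to 154 in young and 67.6 to 204 in old mice, led by *Cd79b* (mean 31.7). Erythroid markers (8 with a value) summed to 664 to 1454 in young and 739 to 1490 in old mice, led by *Car2* (mean 831). *Tek* had the highest level of the endothelial list (mean 93.3), and *Ngp* that of the neutrophil and monocyte list (mean 255).

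*Cd34* in the wider list was called for age only in some settings: lower in old mice with the letter as a covariate, with a minimum mean of 50, with letter B alone, without young mouse 2, without old mouse 5, and with edgeR and DESeq2. *Chst2* was called higher in old mice without old mouse 7, with DESeq2, and with edgeR and the letter as a covariate, and *Fut8* with letter B alone. Of the marker genes, named here because they were called, *Ltf* and *S100a9* were higher in old mice with letter A alone. With letter B alone *Slamf1* and *Vwf* were higher and *Pf4* lower, and *Flt3* was lower with edgeR and the letter as a covariate. *Ltf* was also 1 of the 2 genes called for the interaction (-3.85, limma adjusted p = 0.0235).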
